A study of Bos taurus with 10 samples.

Results

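Embryos of cattle (Bos taurus) whose zygotes had received small interfering RNA against H1FOO (knockdown, KD) were compared with embryos injected with negative control siRNA (NC) at the 8/16-cell stage, 4 days after insemination. The comparison rests on the 2 NC and 2 KD libraries of that stage, 4 of the 10 libraries of the series; the other 6 are NC and KD morulae of day 5.5, with 3 libraries per treatment. Both treatments share the zygote injection, and no uninjected embryos were analysed here. The labels give neither the number of embryos per library nor whether replicates came from separate collections, so the p-values speak only to the spread among these libraries, which may be technical. Expression is given in FPKM (sequenced fragments corrected for gene length and library size), so each value is a share of its library. Of 28698 gene symbols usable in the deposited table, 11810 averaged 1 FPKM or more over the 4 libraries and were tested.

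H1FOO is the linker histone of the oocyte. Linker histones bind the DNA that enters and leaves the nucleosome and help to pack nucleosomes into denser chromatin; the oocyte form is stored by the egg and gives way to somatic linker histones during cleavage. In cattle, the main wave of embryonic genome activation falls around the 8-cell stage, so embryos of this stage hold both stored maternal RNA and newly made transcripts. The title of the series asks about H1FOO in development, lineage specification and nucleosome assembly.

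Throughout, values are given for replicate 1 and then replicate 2 of a treatment. Differences are KD minus NC in mean log2(FPKM + 1), a scale that understates changes of low genes, with the standard error (SE) and adjusted p of the limma test, and n = 2 libraries per treatment. The threshold for passing was an adjusted p below 0.05.

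The target itself was measured at 50.8 and 10.8 FPKM in NC, and KD embryos held 0.649 and 0.0736 FPKM. H1FOO was thus lower in each KD library than in each NC library, while the NC libraries were themselves 2.14 apart on the log2 scale. The difference was -4.22 (SE 0.58, adjusted p = 0.153), which did not pass. In a fit without NC replicate 2, which leaves a lone NC library and takes its spread from the other groups, it was -5.28 with an adjusted p of 0.00157. When libraries were rescaled to equal sums of FPKM, the adjusted p was 0.0415. Over all alternatives run, the adjusted p of H1FOO ranged from 0.00157 to 0.287 and its difference from -6.03 to -3.15.

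With symbols on several lines and the microRNA genes MIR2887-1 and MIR2887-2 left out, the NC libraries summed to 430373 and 400788 FPKM. The KD libraries summed to 488453 and 413395 FPKM, and each library had 11628 to 11870 genes at 1 FPKM or more. With those 2 microRNA genes counted, they held 27.1% of the FPKM of KD replicate 1, 8.06% of KD replicate 2 and 0% of the NC libraries. On the leading principal component (50.7% of the variance) KD replicate 1 stood at 42.6 and the other 3 libraries between -25.7 and -4.46. Component 2 (30.9% of the variance) parted the replicate numbers. Replicate 1 stood at 27.2 in NC and 10.2 in KD, and replicate 2 at -12.7 in NC and -24.7 in KD. Pearson correlations across genes ran from 0.942 (NC replicate 1 with KD replicate 1) to 0.976 (NC replicate 2 with KD replicate 2), so the libraries most alike came from different treatments. NC replicate 1 and NC replicate 2 had 273 genes at least 2-fold apart on FPKM + 1, and KD replicate 1 and KD replicate 2 had 524. Markers of the oocyte and of genome activation were present in all 4 libraries: DUXA was at 399 to 581 FPKM, KLF17 at 196 to 226 FPKM, and BMP15 at 38.0 to 75.7 FPKM.

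In limma, 0 of the 11810 genes (0%) passed, and 570 (4.83%) had an unadjusted p under 0.05, 335 of them higher (2.84%) and 235 lower (1.99%) in KD. Without KD replicate 2, 12 genes passed; without NC replicate 2, 7 passed; and without NC replicate 1 or without KD replicate 1, 2 passed. An exact permutation test of 2 against 2 libraries cannot go below a two-sided p of 0.333, so the separation of the libraries is given as a description. The treatments were separated, with no overlap of their libraries, for 3939 genes (33.4%): 2316 higher (19.6%) and 1623 lower (13.7%) in KD. Libraries in random order would separate with the same frequency of 0.333, so no treatment effect is read from these counts. All libraries of KD were at least 2-fold apart from all libraries of NC for 38 genes higher (0.322%) and 14 genes lower (0.119%); with any 1 of the 4 libraries left out these counts became 65 to 207 and 35 to 105. Of these, 8 higher and 9 lower genes carry LOC symbols, given to loci without an assigned name, and some were listed at 0 in every library of a treatment. The plot of differences against mean level shows where the named genes lie among all genes.

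**Figure D1:**
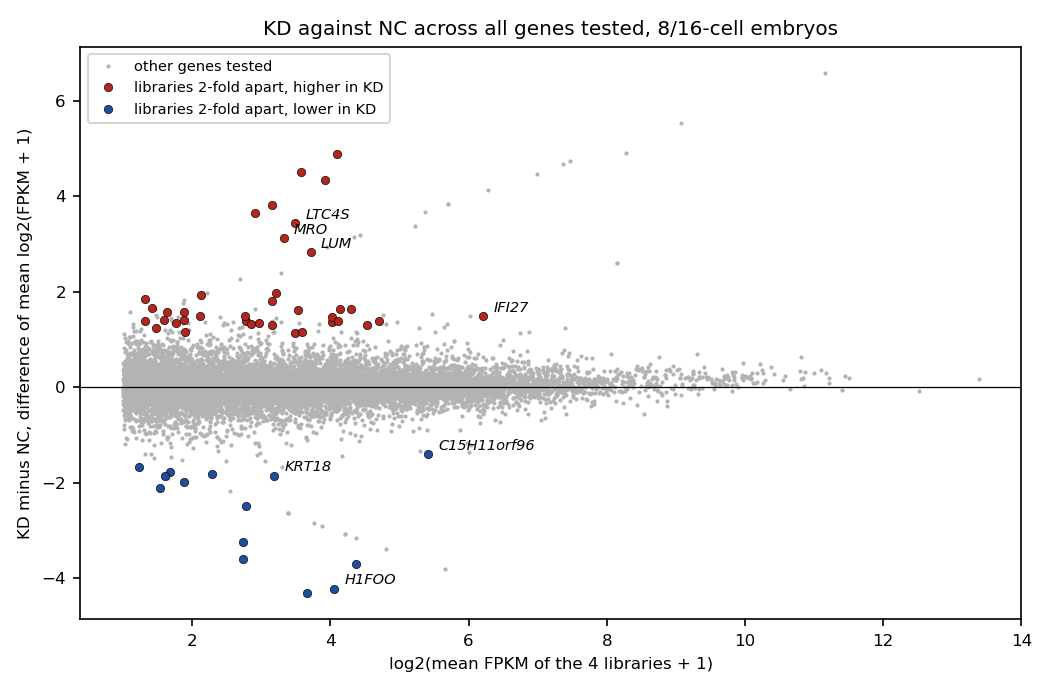
Each point is 1 of the 11810 tested genes, with its mean level over the 4 libraries of the 8/16-cell stage as log2(FPKM + 1) on the x axis and KD minus NC in mean log2(FPKM + 1) on the y axis. Red (38) and blue (14) points are genes whose KD and NC libraries are at least 2-fold apart; grey points with equally large differences are genes in which libraries of the treatments overlap or stand closer than 2-fold.

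Among genes with a symbol and a mean of at least 5 FPKM, the 14 with the widest gap between the treatments on the higher side were taken. They included genes of the extracellular matrix and of cholesterol and fatty acid synthesis, kinds that were named after the genes had been seen. For the 14 genes the difference ran from 1.30 to 3.43 and the adjusted p from 0.365 to 0.998, so that none of the 14 passed. The spread behind these p-values is shared with the morula libraries. In a limma fit of the 8/16-cell libraries alone, none of the 14 passed either, and the adjusted p of LUM was 0.0908. The widest gap belonged to MRO, which encodes the nucleolar protein maestro, at 0.422 and 1.87 FPKM in NC against 19.6 and 14.1 FPKM in KD (difference 3.13, SE 0.88, adjusted p = 0.904). LTC4S, the enzyme that makes leukotriene C4, was listed at 0 and at 2.21 FPKM in NC and stood at 25.5 and 13.1 FPKM in KD. In both genes NC replicate 1 was the lowest library, and both KD libraries stood far above both NC libraries.

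Matrix genes made up 4 of the 14. LUM, a collagen-binding proteoglycan, stood at 0.944 and 4.24 FPKM in NC against 19.9 and 23.4 FPKM in KD (difference 2.82, SE 1.0005, adjusted p = 0.915). THBS1, the matrix glycoprotein thrombospondin, stood at 3.90 and 1.80 FPKM in NC against 15.6 and 11.6 FPKM in KD (difference 1.97, SE 0.60, adjusted p = 0.904). PLOD2, which hydroxylates collagen lysines, stood at 7.33 and 9.75 FPKM in NC against 31.2 and 26.1 FPKM in KD (difference 1.64, SE 0.73, adjusted p = 0.998). In all of these the lowest KD library lay above the highest NC library by more than the distance between replicates, on the log2 scale. MRC2, an endocytic receptor for collagen, was at 2.82 and 4.11 FPKM in NC against 10.4 and 9.94 FPKM in KD.

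Enzymes of cholesterol and fatty acid synthesis made up 3 of the 14. SCD, the desaturase that makes monounsaturated fatty acids, measured 8.33 and 8.71 FPKM in NC against 23.6 and 24.1 FPKM in KD (difference 1.38, SE 0.42, adjusted p = 0.904). ACSS2, which makes acetyl-CoA from acetate, stood at 2.72 and 2.85 FPKM in NC against 10.6 and 7.35 FPKM in KD. TM7SF2, a sterol reductase of cholesterol synthesis, had 3.32 and 1.92 FPKM in NC against 8.30 and 9.66 FPKM in KD. The other members of the 14 were not of these 2 kinds. PLAT, the tissue-type plasminogen activator, stood at 11.7 and 12.9 FPKM in NC against 32.2 and 31.5 FPKM in KD. STRA6, the cell-surface receptor for retinol-binding protein, was at 4.17 and 5.18 FPKM in NC against 14.9 and 17.8 FPKM in KD. CALB1, the calcium-binding protein calbindin, measured 6.51 and 8.34 FPKM in NC against 31.7 and 20.0 FPKM in KD. For PLAT the limma SE of 0.85 exceeded the distance between the replicates at this stage, because the spread is shared with the morula libraries. IFI27, an interferon-induced gene, was the most abundant of the 14, at 36.6 and 38.4 FPKM in NC against 127 and 89.4 FPKM in KD. PLPP7 completed the group at 2.81 and 3.48 FPKM in NC against 8.92 and 9.65 FPKM in KD.

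**Figure D2:**
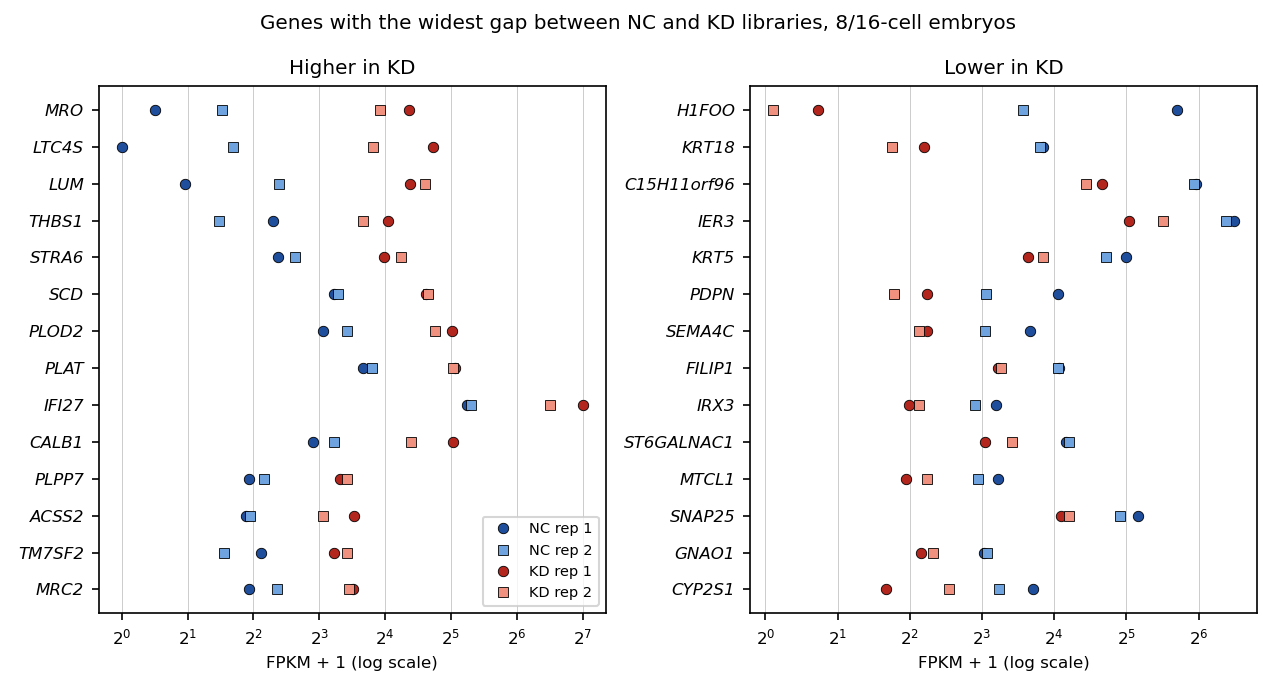
FPKM + 1 on a log axis in the 4 libraries of the 8/16-cell stage (circles, replicate 1; squares, replicate 2; blue, NC; red, KD), for the 14 genes with the widest gap on each side. In every row the red and blue points do not overlap, as the choice of the genes requires; H1FOO shows the widest spread between the NC replicates among the genes lower in KD.

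Beside H1FOO, the genes with the widest gap on the lower side included 2 keratins. KRT18, the partner of keratin 8 in simple epithelia, stood at 13.4 and 13.02 FPKM in NC against 3.60 and 2.37 FPKM in KD (difference -1.85, SE 0.58, adjusted p = 0.911). KRT5, a keratin of basal epithelial cells, had 31.0 and 25.3 FPKM in NC against 11.4 and 13.3 FPKM in KD. KRT8 did not share this direction, at 10.6 and 7.92 FPKM in NC against 12.4 and 9.12 FPKM in KD, and its libraries overlapped. Keratin genes have closely similar copies in mammalian genomes, between which the counting may have split reads.

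The open reading frame C15H11orf96 stood at 61.3 and 60.5 FPKM in NC against 24.2 and 20.7 FPKM in KD (difference -1.40, SE 0.40, adjusted p = 0.904). IER3, an immediate early gene linked to cell survival, was at 88.9 and 82.4 FPKM in NC against 31.9 and 44.3 FPKM in KD; its adjusted p of 0.365 was the lowest of this group after H1FOO. These were the 2 most abundant genes of the lower group, and their NC replicates lay close together. The membrane and signalling genes of the group were PDPN (podoplanin), SEMA4C (a semaphorin), SNAP25 (a protein of membrane fusion) and GNAO1 (a G protein subunit). PDPN measured 15.6 and 7.29 FPKM in NC against 3.73 and 2.45 FPKM in KD. SEMA4C stood at 11.7 and 7.20 FPKM in NC against 3.72 and 3.37 FPKM in KD. SNAP25 had 34.9 and 29.1 FPKM in NC against 16.1 and 17.4 FPKM in KD. In PDPN and SEMA4C the NC replicates were farther apart than the KD replicates. IRX3, a homeobox transcription factor, stood at 8.11 and 6.48 FPKM in NC against 2.98 and 3.37 FPKM in KD. The sialyltransferase gene ST6GALNAC1 was at 16.9 and 17.4 FPKM in NC against 7.20 and 9.63 FPKM in KD. FILIP1, whose product binds filamin, measured 15.8 and 15.7 FPKM in NC against 8.32 and 8.62 FPKM in KD. The differences of the remaining 3, GNAO1, MTCL1 and CYP2S1, were -0.81, -0.996 and -1.37, and none of the 14 passed.

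Gene lists by function follow, each read against all tested genes, of which 19.6% did not overlap on the higher side, 13.7% did not overlap on the lower side, and the median difference was 0.02. Of the 45 list medians, 28 changed sign under at least 1 alternative. No member of any list passed in limma. In bulk RNA, fewer cells of a type and less RNA per cell cannot be told apart. The plot of list medians sets each treatment difference beside the difference between replicates.

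**Figure D3:**
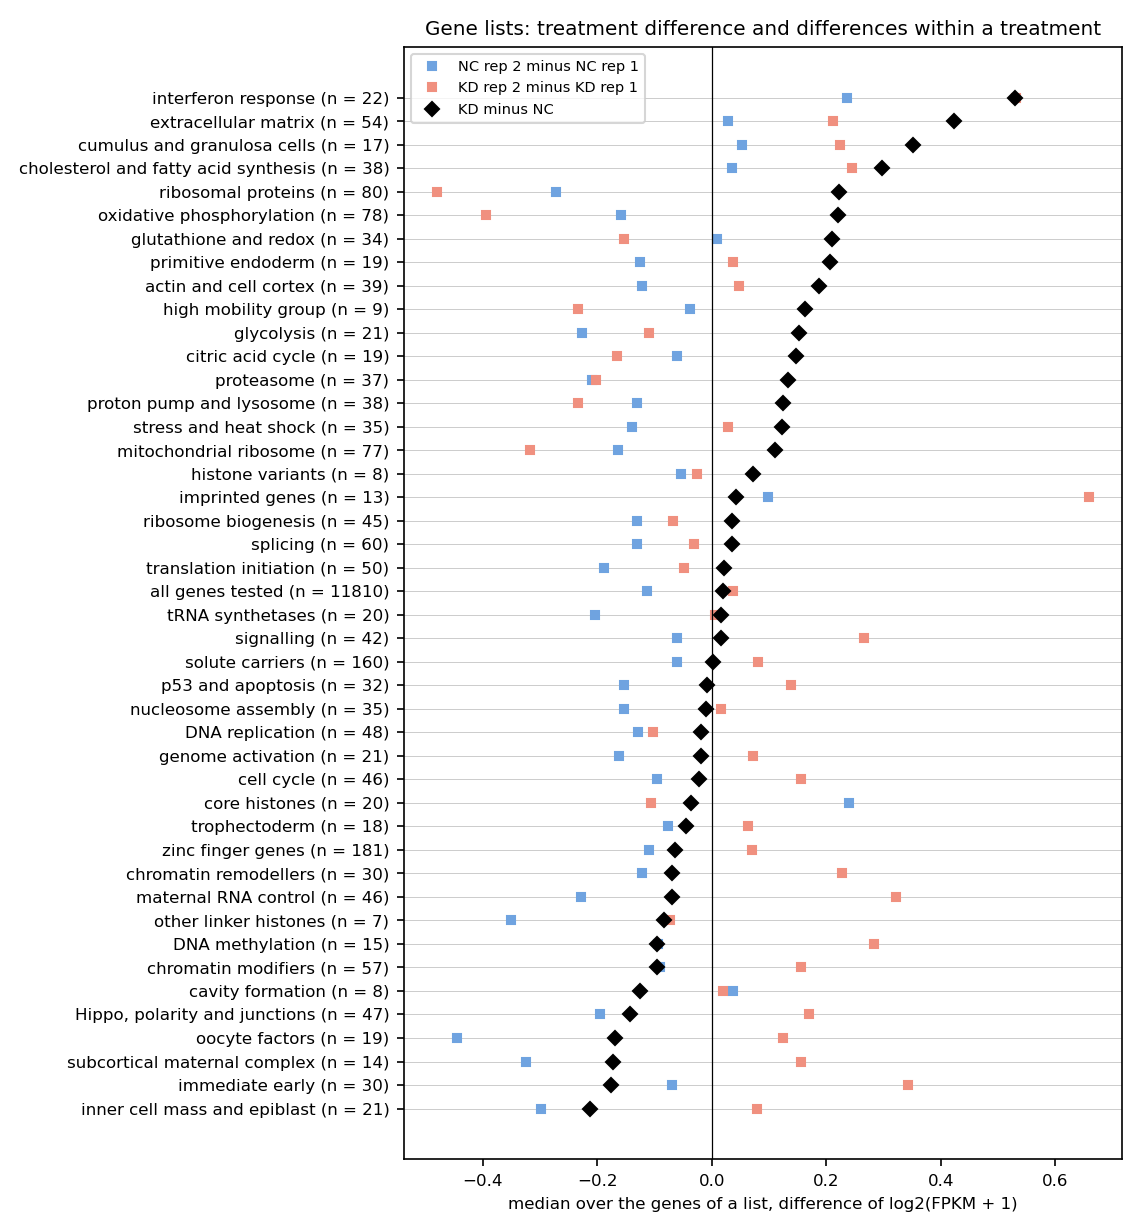
Median over the tested genes of each list (n in brackets) of the difference in log2(FPKM + 1): black diamonds, KD minus NC; blue squares, NC replicate 2 minus NC replicate 1; red squares, KD replicate 2 minus KD replicate 1. Interferon response (0.53), extracellular matrix (0.42) and cumulus and granulosa markers (0.35) lie farthest to the right; for interferon response the difference between the KD replicates is as large and lies under the diamond, and for ribosomal proteins and oxidative phosphorylation the KD replicates differ by more than the treatments.

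Among chromatin genes, the other linker histones H1F0, H1FX and HIST1H1C gave differences smaller than their standard errors. H1F0, a replacement linker histone, stood at 28.8 and 26.0 FPKM in NC against 21.3 and 23.4 FPKM in KD (difference -0.28, SE 0.39, adjusted p = 0.998). H1FX had 65.6 and 67.5 FPKM in NC against 71.2 and 67.6 FPKM in KD (difference 0.06, SE 0.27), a sign that turned to -0.05 with equal sums of FPKM. HIST1H1C stood at 52.1 and 30.6 FPKM in NC against 53.3 and 36.0 FPKM in KD, and these libraries overlapped. The list of 7 tested members had a median of -0.08, with 2 genes higher and 5 lower; the median was 0.04 without NC replicate 1 and 0.10 without KD replicate 2. Most replication-dependent histone transcripts have no poly(A) tail and these libraries were poly(A)-selected. The values of HIST1H1C and of the 20 tested core histone genes (median -0.04) thus reflect only the RNA that oligo(dT) captured.

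Histone chaperones, which load histones onto DNA, were spread to both sides: of 35 tested genes 17 were higher and 18 lower, 9 did not overlap on the higher side (25.7%) and 8 on the lower side (22.9%), and the median was -0.01. NASP, a chaperone of histone H3 and of linker histones, was at 50.3 and 44.0 FPKM in NC against 75.7 and 54.2 FPKM in KD (difference 0.44, SE 0.22). ASF1B, which hands on H3 and H4 during replication, measured 68.8 and 88.6 FPKM in NC against 104 and 126 FPKM in KD (difference 0.55, SE 0.32). DAXX, a chaperone of H3.3, stood at 52.7 and 45.1 FPKM in NC against 37.8 and 39.3 FPKM in KD (difference -0.33, SE 0.18). All 3 had an adjusted p of 0.998.

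Writers and erasers of histone marks lay more often on the lower side, with 39 of 57 genes lower, 14 of them without overlap (24.6%), against 3 without overlap on the higher side (5.26%). Their median was -0.10, and it lay between -0.20 and -0.02 over the alternatives run. The NC replicates differed by -0.09 and the KD replicates by 0.15 in the same genes. Their mean level on the log2 scale was 4.58 and 4.51 in NC against 4.38 and 4.53 in KD, so KD replicate 2 lay between the NC libraries. The 3 smallest p-values were those of HDAC3, a histone deacetylase, at 12.9 and 10.2 FPKM in NC against 19.7 and 13.99 FPKM in KD, of SUZ12, a subunit of the Polycomb repressive complex, at 17.1 and 14.9 FPKM in NC against 22.4 and 21.8 FPKM in KD, and of KDM6B, a demethylase of H3 lysine marks, at 3.47 and 2.74 FPKM in NC against 1.27 and 2.45 FPKM in KD. HDAC3 and SUZ12 thus stood on the opposite side from most of their list. Of 15 DNA methylation genes, 12 were lower (median -0.10, and 0.04 without KD replicate 1). UHRF1, which guides maintenance methylation, had 38.6 and 21.0 FPKM in NC against 12.9 and 24.1 FPKM in KD, with overlapping libraries.

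Among stored oocyte transcripts, of 19 oocyte factors, 2 did not overlap on the higher side and 0 on the lower; the median of -0.17 was smaller than the -0.45 between the NC replicates, and it was 0.11 without NC replicate 1. GDF9, an oocyte growth factor, stood at 16.2 and 8.89 FPKM in NC against 7.64 and 12.4 FPKM in KD. ZP3, a zona pellucida protein, was at 18.1 and 16.3 FPKM in NC against 21.0 and 15.6 FPKM in KD. Both genes overlapped between treatments. FST, follistatin, an antagonist of activin counted in this list, measured 1.33 and 0.250 FPKM in NC against 6.10 and 2.13 FPKM in KD (difference 1.47, SE 0.52, adjusted p = 0.911). In the list of maternal-effect genes, 11 of 14 were lower (median -0.17), among them PADI6 at 11.4 and 6.99 FPKM in NC against 4.11 and 6.19 FPKM in KD. The NC replicates differed by -0.33 in this list, and its median lay between -0.44 and -0.03 over the alternatives run. UCHL1, a ubiquitin hydrolase in the same list, stood at 18.7 and 26.0 FPKM in NC against 60.0 and 47.1 FPKM in KD (difference 1.23, SE 0.62, adjusted p = 0.998).

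Genes of embryonic genome activation had no common direction, with 9 of 21 higher and a median of -0.02. DUXA, a homeobox factor of genome activation, had 448 and 399 FPKM in NC against 581 and 489 FPKM in KD (difference 0.33, SE 0.59). KLF17 stood at 216 and 196 FPKM in NC against 226 and 211 FPKM in KD (difference 0.08, SE 0.30), with a sign that turned to -0.03 with equal sums and to -0.0026 with quantile normalization. ARGFX was at 208 and 179 FPKM in NC against 184 and 197 FPKM in KD (difference -0.02, SE 0.29). All 3 differences were smaller than their standard errors, so differences of these sizes were not detectable with these libraries.

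Pluripotency and epiblast genes stood on the lower side for 19 of 21 members, 4 of them without overlap (19%, against 13.7% of all genes), with a median of -0.21. The NC replicates differed by -0.30 in the same genes, and without NC replicate 1 the median was -0.10. SOX2 measured 112 and 91.0 FPKM in NC against 60.2 and 65.0 FPKM in KD (difference -0.68, SE 0.26, adjusted p = 0.964). PRDM14, a pluripotency factor that also acts on DNA methylation, stood at 66.7 and 43.8 FPKM in NC against 45.1 and 31.3 FPKM in KD. NANOG had 63.2 and 36.1 FPKM in NC against 46.5 and 40.2 FPKM in KD. Only for SOX2 among these 3 genes did the treatments not overlap. POU5F1 stood at 180 and 117 FPKM in NC against 152 and 97.4 FPKM in KD, also with overlap.

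Primitive endoderm genes had 7 of 19 members without overlap on the higher side (36.8%) and 3 on the lower side (15.8%), with a median of 0.21 that became -0.05 among members with a mean of at least 5 FPKM. The 3 with the smallest p were low in NC. APOE, a lipid carrier, was at 2.77 and 1.73 FPKM in NC against 8.56 and 5.67 FPKM in KD (difference 1.32, SE 0.40, adjusted p = 0.904). COL4A1, a basement membrane collagen, measured 2.17 and 2.24 FPKM in NC against 4.67 and 5.40 FPKM in KD (difference 0.91, SE 0.28). GATA4, a transcription factor of the lineage, stood at 1.76 and 1.81 FPKM in NC against 5.52 and 3.08 FPKM in KD (difference 0.89, SE 0.28). The other named factors of the lineage lay on the opposite side. GATA6, far more abundant, had 172 and 138 FPKM in NC against 121 and 124 FPKM in KD (difference -0.33, SE 0.28). SOX17 stood at 1.13 and 1.67 FPKM in NC against 0.947 and 0.410 FPKM in KD.

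Trophectoderm genes were divided, 9 higher and 9 lower, with 7 of 18 without overlap on the lower side (38.9%) and 3 on the higher side (16.7%). CDX2, a trophectoderm transcription factor, was at 8.29 and 2.39 FPKM in NC against 1.68 and 2.82 FPKM in KD, so that NC replicate 1 alone was high. GATA3 measured 2.96 and 2.48 FPKM in NC against 0.708 and 2.42 FPKM in KD, and here KD replicate 1 alone was low. TFAP2C stood at 130 and 122 FPKM in NC against 107 and 116 FPKM in KD (difference -0.17, SE 0.17), and TFAP2A at 0.955 and 1.61 FPKM in NC against 2.09 and 2.93 FPKM in KD. The desmosome gene DSP had 2.27 and 2.11 FPKM in NC against 0.870 and 1.59 FPKM in KD. None of these genes passed.

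Genes of Hippo signalling, polarity and cell junctions had 16 of 47 members without overlap on the lower side (34%) and 4 on the higher side (8.51%). Their median was -0.14, close in size to the difference between replicates within NC (-0.20) and within KD (0.17), and it was 0.03 without KD replicate 1. CLDN4, a tight junction claudin, stood at 18.8 and 9.08 FPKM in NC against 5.41 and 2.05 FPKM in KD (difference -1.68, SE 0.53, adjusted p = 0.911). F11R, a junction adhesion molecule, was at 196 and 131 FPKM in NC against 103 and 94.4 FPKM in KD (difference -0.70, SE 0.24). WWTR1, the TAZ co-activator of the Hippo pathway, measured 42.4 and 46.0 FPKM in NC against 29.0 and 31.3 FPKM in KD (difference -0.54, SE 0.18). The replicates of WWTR1 agreed within 0.11 on the log2 scale in each treatment. In the list of cavity formation, the water channel AQP7 stood at 5.75 and 2.17 FPKM in NC against 1.21 and 1.23 FPKM in KD (difference -1.06, SE 0.35), and 3 of 8 members did not overlap on the lower side (37.5%).

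Actin and cell cortex genes lay on the other side, with 15 of 39 without overlap above NC (38.5%), 4 below it (10.3%) and a median of 0.19. That median kept its sign under each alternative run and was 0.05 at the lowest, without NC replicate 2. CALD1, caldesmon, had 4.75 and 7.38 FPKM in NC against 14.8 and 14.7 FPKM in KD (SE 0.30). GSN, the actin-severing protein gelsolin, stood at 11.7 and 12.1 FPKM in NC against 24.4 and 26.7 FPKM in KD (SE 0.28). TPM1, a tropomyosin, was at 30.0 and 41.7 FPKM in NC against 55.3 and 63.2 FPKM in KD (difference 0.72, SE 0.25). These 3 actin-binding proteins had adjusted p-values of 0.826, 0.841 and 0.911.

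A list of extracellular matrix genes was added after values had been seen, and its count is therefore a description. Of 54 tested members 44 were higher, 29 of them without overlap (53.7%, against 19.6% of all genes), 1 did not overlap below NC (1.85%), and the median was 0.42. Over the alternatives run this median lay between 0.30 and 0.88, the highest being that of members with a mean of at least 5 FPKM. The summed level of the list was 457 and 467 FPKM in NC against 774 and 825 FPKM in KD, and 14 members had an unadjusted p under 0.05. SERPINH1, the collagen chaperone, measured 14.3 and 18.5 FPKM in NC against 37.6 and 49.8 FPKM in KD (difference 1.36, SE 0.47, adjusted p = 0.911). TIMP1, an inhibitor of matrix proteases, stood at 56.3 and 62.3 FPKM in NC against 130 and 109 FPKM in KD (difference 0.997, SE 0.35, adjusted p = 0.911). MFAP2, a microfibril protein, had 0.682 and 0.957 FPKM in NC against 3.50 and 5.55 FPKM in KD (difference 1.58, SE 0.45, adjusted p = 0.904). The replicates of a treatment were close to each other in all 3 relative to the distance between the treatments.

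Cumulus and granulosa cells are the somatic companions of the oocyte, and their markers are given beside the matrix genes. Of 21 such markers 17 were tested, 11 were higher and 6 lower in the mean, 9 did not overlap on the higher side (52.9%) and 2 on the lower side (11.8%), and none passed. The median was 0.35, and between 0.26 and 0.96 over the alternatives run. Their summed level was 110 and 116 FPKM in NC against 181 and 191 FPKM in KD. FSHR, the receptor for follicle-stimulating hormone, was listed at 0 in all 4 libraries, and CYP19A1 was at 0.0144 and 0.0483 FPKM in NC against 0 and 0.0352 FPKM in KD. AMH, a granulosa hormone, stood at 3.14 and 2.61 FPKM in NC against 2.45 and 1.88 FPKM in KD. CYP11A1, the first enzyme of steroid synthesis, was at 6.996 and 7.85 FPKM in NC against 29.2 and 16.8 FPKM in KD (difference 1.46, SE 0.73, adjusted p = 0.998). INHA, the inhibin alpha subunit, measured 0.705 and 1.14 FPKM in NC against 3.62 and 4.09 FPKM in KD (difference 1.34, SE 0.38, adjusted p = 0.898). VIM stood at 16.4 and 20.3 FPKM in NC against 31.9 and 41.5 FPKM in KD. COL1A1 did not follow, at 23.1 and 22.0 FPKM in NC against 13.3 and 25.7 FPKM in KD. The matrix list shares 5 genes with the marker list; without them 27 of 49 matrix genes did not overlap on the higher side and the median was 0.44. The part of other cells in these values was not tested.

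INHBB, an activin beta subunit, had 2.26 and 4.35 FPKM in NC against 7.74 and 8.25 FPKM in KD (SE 0.32, adjusted p = 0.904). The whole list of FGF, BMP, activin, Nodal and Wnt signalling had 9 of 42 members without overlap on each side (21.4%) and a median of 0.02, which took the opposite sign with each of the 3 other scalings.

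Genes of cholesterol and fatty acid synthesis, likewise a list added after values had been seen, had 21 of 38 members without overlap on the higher side (55.3%) and 4 on the lower side (10.5%), with a median of 0.30. The KD replicates differed by 0.24 and the NC replicates by 0.03. SCD, ACSS2 and TM7SF2 belong to this list. Over the alternatives run this median stayed between 0.19 and 0.43.

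In energy metabolism, glycolysis had 8 of 21 genes without overlap above NC (38.1%) and a median of 0.15. The NC replicates differed by -0.23 in the same genes. Their summed level was 1749 and 1575 FPKM in NC against 1667 and 1748 FPKM in KD, so both KD libraries lay between the NC libraries. ENO1, an enolase, was at 34.3 and 33.1 FPKM in NC against 71.6 and 56.9 FPKM in KD (difference 0.90, SE 0.36, adjusted p = 0.975). TPI1, triose phosphate isomerase, measured 12.5 and 8.55 FPKM in NC against 22.6 and 19.5 FPKM in KD. HK1, a hexokinase, stood at 9.38 and 7.66 FPKM in NC against 14.8 and 13.6 FPKM in KD. Nuclear-encoded subunits of oxidative phosphorylation were higher for 70 of 78 genes, with 19 without overlap (24.4%) and a median of 0.22. KD replicate 1 stood apart in this list: its summed level was 12713 FPKM, against 9707 FPKM in KD replicate 2 and 9917 and 9111 FPKM in NC, and without KD replicate 1 the median was 0.03. The 13 genes of the mitochondrial genome were listed at 0 in all libraries.

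Cytosolic ribosomal proteins, which share reads with many processed copies, were higher in the mean for 80 of 80 genes, yet 12 did not overlap (15%, against 19.6% of all genes). Their summed level was 75356 and 62022 FPKM in NC against 97528 and 68109 FPKM in KD, so KD replicate 2 lay between the NC libraries. The median of 0.22 became -0.0027 without KD replicate 1. RPL22 had 319 and 314 FPKM in NC against 791 and 302 FPKM in KD. Here too a lone library carried the difference.

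The list of interferon response genes had the highest median of the lists, 0.53, with 21 of 22 genes higher and 11 without overlap (50%). The KD replicates differed by 0.53 and the NC replicates by 0.24, and the median was 0.33 without KD replicate 2 and 0.81 without KD replicate 1. MX1, an antiviral GTPase, stood at 5.66 and 9.53 FPKM in NC against 13.4 and 23.7 FPKM in KD (difference 1.17, SE 0.64, adjusted p = 0.998). ISG20, an exonuclease, was at 0.397 and 2.78 FPKM in NC against 4.30 and 3.14 FPKM in KD (difference 1.03, SE 0.40). IFI44L overlapped between treatments, at 0.552 and 2.10 FPKM in NC against 2.02 and 3.72 FPKM in KD. The summed level of the list was 194 and 272 FPKM in NC against 442 and 523 FPKM in KD.

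Glutathione and redox genes had 13 of 34 members without overlap above NC (38.2%) and 0 below it, with a median of 0.21, LTC4S among them. GSTO1, a glutathione transferase, measured 6.55 and 5.39 FPKM in NC against 15.9 and 7.50 FPKM in KD (difference 0.79, SE 0.37). Immediate early genes leaned to the lower side, with 9 of 30 without overlap below NC (30%) and 5 above it (16.7%), and their median of -0.18 became 0.04 without KD replicate 1. ZFP36, which promotes decay of messenger RNA, stood at 21.0 and 25.9 FPKM in NC against 3.31 and 17.4 FPKM in KD (difference -1.45, SE 0.49, adjusted p = 0.911). The low level of ZFP36 was that of KD replicate 1, and without KD replicate 2 it passed with an adjusted p of 0.00485. ATF3, a stress-induced transcription factor, had 84.8 and 86.2 FPKM in NC against 48.8 and 62.4 FPKM in KD (difference -0.62, SE 0.23). SGK1, a kinase induced by serum and glucocorticoids, lay on the opposite side, at 134 and 131 FPKM in NC against 233 and 201 FPKM in KD.

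Cell division genes showed no common direction: 21 of 46 cell cycle genes were higher, with 9 without overlap on each side (19.6%), and 21 of 48 replication genes were higher. CDK1, the mitotic kinase, stood at 85.1 and 85.4 FPKM in NC against 114 and 118 FPKM in KD (difference 0.44, SE 0.18, adjusted p = 0.998). Among 32 p53 and apoptosis genes, 16 were higher. PERP, a p53 target of cell junctions, was at 4.33 and 5.59 FPKM in NC against 1.27 and 2.80 FPKM in KD (difference -1.01, SE 0.42). Of 181 zinc finger genes 107 were lower (median -0.06), and ZNF367 stood out on the higher side at 1.23 and 1.41 FPKM in NC against 3.89 and 4.39 FPKM in KD (difference 1.15, SE 0.25, adjusted p = 0.447). In the lysosome list 13 of 38 did not overlap above NC (34.2%) and 1 did not below it (2.63%). Its median of 0.12 was smaller in size than the -0.23 between the KD replicates, and it was -0.04 without NC replicate 2. GM2A, the ganglioside activator protein, lay on the lower side, at 50.5 and 45.4 FPKM in NC against 29.6 and 29.6 FPKM in KD.

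The medians of the remaining 14 lists lay between -0.07 (chromatin remodellers, maternal RNA control) and 0.16 (high mobility group proteins). Proteasome subunits were higher for 30 of 37 genes, with 8 without overlap (21.6%) and a median of 0.13. Stress and heat shock genes were higher for 23 of 35, with 9 without overlap (25.7%) and a median of 0.12. PDIA4, a folding enzyme of the endoplasmic reticulum, measured 29.2 and 33.6 FPKM in NC against 41.8 and 51.6 FPKM in KD (difference 0.55, SE 0.20, adjusted p = 0.915).

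Among the other marker lists, 3 of 10 sperm and testis markers and 3 of 10 blood and immune markers reached the level for testing. TNP1, a sperm transition protein, stood at 6.38 and 1.69 FPKM in NC against 0 and 0.441 FPKM in KD (difference -1.89, SE 0.44, adjusted p = 0.693). ODF2 and LDHC had differences of -0.10 and 0.11. The blood and immune genes CD68, HBA and CSF1R had differences of 0.41, -0.07 and -0.18. These differences lay within their standard errors apart from those of TNP1 and CD68.

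The same genes were then read in the morula libraries. These had no part in the gaps by which the 14 genes per direction were chosen. The limma SE and p of the 8/16-cell stage, however, take part of their spread from them. All 14 genes of the higher group had a positive KD minus NC difference in morulae (median 1.31), against 43.8% of all tested genes (median -0.06). Of these 14, 9 had an unadjusted p under 0.05 in morulae, where 20.8% of all genes did, and 0 passed, where 0.754% of all genes did. With a replicate block, which pairs same-numbered libraries at both stages, 9 of the 14 passed in limma, where 12.4% of all genes did. STRA6 had a morula difference of 1.92 (SE 0.56), CALB1 of 1.42 (SE 0.40) and ACSS2 of 1.31 (SE 0.39). The library KD morula replicate 3 carried much of these differences: without it all 14 were still positive, but their median was 0.75, that of all genes -0.04, and LUM went from 1.003 to 0.03, THBS1 from 0.99 to 0.31, STRA6 from 1.92 to 1.204 and ACSS2 from 1.31 to 0.80. Without NC morula replicate 1, which was listed at 0 for MRO, LTC4S, STRA6, PLAT and IFI27, all 14 were positive and their median was 0.97. Of all 38 genes 2-fold apart on the higher side, LOC symbols and lower levels included, 30 were positive in morulae and 8 negative (median 0.99). In the lower group 10 of 14 were negative in morulae, or 9 of 13 without H1FOO. SEMA4C (-1.77, adjusted p = 0.0329) and SNAP25 (-1.14, adjusted p = 0.0428) passed there in limma. Neither passed without KD morula replicate 3 (-1.37, adjusted p = 0.0943, and -0.94, adjusted p = 0.167), and with the replicate block 6 of the 14 passed, FILIP1 among them on the higher side. Over all genes, 89 passed in morulae, 0 without NC morula replicate 1, KD morula replicate 2 or KD morula replicate 3, and 1469 with the replicate block. FILIP1 had the opposite sign in morulae (0.75, SE 0.33), and IER3 was near 0 (-0.04, SE 0.19).

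**Figure D4:**
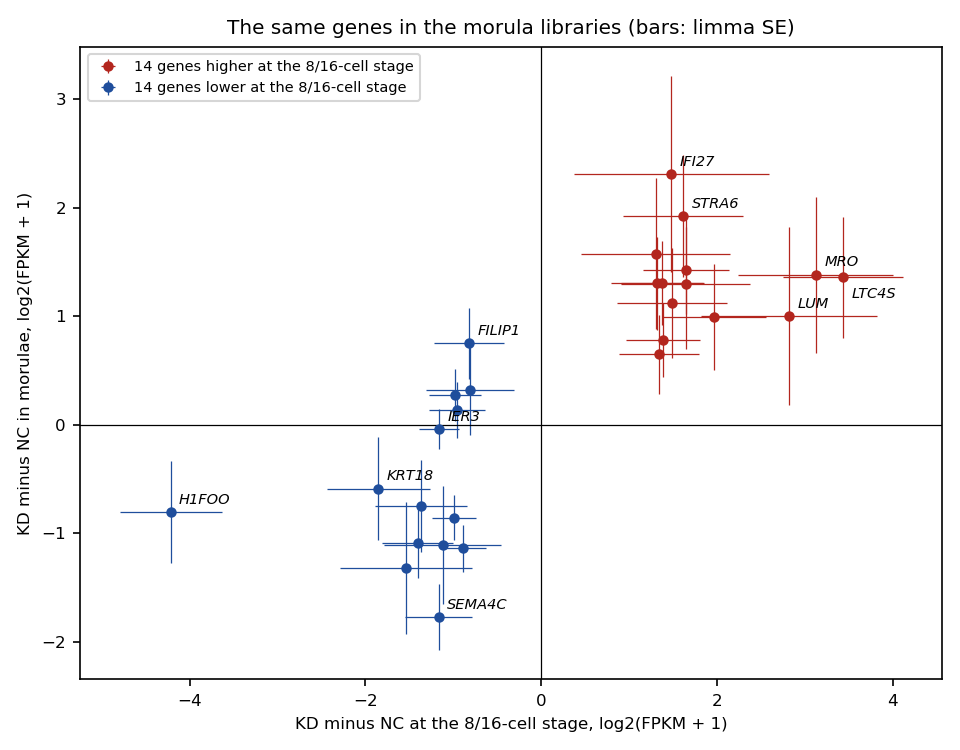
KD minus NC in mean log2(FPKM + 1) at the 8/16-cell stage (x axis) and in morulae (y axis) for the 14 genes with the widest gap on each side; bars are limma standard errors. All 14 red points lie above 0 in morulae, and 10 of 14 blue points lie below it.

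Whether the KD difference itself changed between the stages was tested as an interaction in limma: 0 of 11810 genes (0%) passed and 1121 (9.49%) had an unadjusted p under 0.05. With the replicate block 51 genes passed in limma (0.432%), among them H1FOO (adjusted p = 0.0250), FILIP1 (0.0371), COL4A1 (0.0250), NASP (0.0250), H1FX (0.0371) and HIST1H1C (0.0371). The block also pairs the 8/16-cell libraries by number, where same-numbered libraries had a correlation of 0.0569. The values that follow are those without the block. GSN had a morula difference of -0.03 (interaction adjusted p = 0.473), CALD1 of -0.25 (0.423) and TPM1 of -0.50 (0.423). APOE (-0.38, interaction adjusted p = 0.467) and COL4A1 (-0.996, 0.232) had negative morula differences, while GATA4 had 0.89 at both stages. NASP had a morula difference of -1.12, with an interaction adjusted p of 0.232. The linker histones H1F0, H1FX and HIST1H1C had morula differences of 1.65, 1.36 and 2.04, with interaction adjusted p-values of 0.423, 0.423 and 0.475. Across the 11810 genes the differences of the 2 stages had a Pearson r of 0.179; genes are not independent replicates.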

How the data were processed

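RNA of 4 libraries was analysed. A Picopure kit isolated the RNA, oligo(dT) beads bound the messengers and NEBNext Ultra chemistry made the libraries, per the labels' protocols; strand is not stated, so sense and antisense reads are not distinguished. The tools HISAT2, Trimmomatic, Cufflinks and featureCounts and the builds ARS-UCD1.2 and bosTau9 are named per the submitters' processing notes; versions are not given in the sources used here. The authors deposited FPKM values for 39911 lines; depth is unknown, so no counting error is given. Left out were 81 symbols on several lines (11211 lines), MIR2887-1 and MIR2887-2. limma 3.58.1 (R 4.3.3, trend, 6 residual degrees of freedom) fitted 4 group means to log2(FPKM + 1) of all 10 libraries, for genes averaging 1 FPKM or more over the 4 libraries, with Benjamini-Hochberg adjustment over 11810 genes, two-sided. The script was tested on simulated data. Same-numbered libraries deviated together with correlations of 0.519, 0.407 and 0.386 in morulae and of 0.0569 at the 8/16-cell stage. The fit of 4 group means did not pair libraries. The replicate block, an alternative, paired same-numbered libraries at both stages, although the correlation at the 8/16-cell stage gave little basis for it there.

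The members and lists were chosen with earlier results of these data known. Named genes are H1FOO, fixed lineage genes, the 14 per direction with the largest ratio between the nearest libraries of the treatments (mean of 5 FPKM or more, symbols other than LOC), and the 3 smallest p per list (all members where 5 or fewer were tested). SERPINH1, TIMP1, CYP11A1, VIM, COL1A1, AMH, CYP19A1 and FSHR, and 2 lists of 47, were chosen after their values were seen. Alternatives covered pseudocount, filters, scaling, weights, a replicate block and leaving out each library. No sequences are shown. The values of 1 gene are not reported here.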

Additional observations from a re-analysis of the deposited data

Results flagged for a closer look

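The microRNA genes MIR2887-1 and MIR2887-2 were left out of the comparison. They held values above those of the controls in the KD embryos of the compared stage, but not in KD morulae. Each was listed at 0 in both NC libraries and at 18126.6 FPKM in KD replicate 2, the lower KD library. In KD replicate 1 they were at 45345.5 and 136037 FPKM. The number of fragments behind these values is unknown, and FPKM divides by the length of very short genes. In morulae both genes were listed at 0 in every NC library and in every KD library.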

How the results depend on the processing

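Results were recomputed under up to 20 alternatives: 20 for the count past the limma threshold, 19 for the interaction, 11 for genes 2-fold apart, and 17 to 20 for each named gene. The count of genes past the limma threshold, 0 as reported (570 at an unadjusted p under 0.05), was 1 with a pseudocount of 0.1, 7 with no filter on low values, 1 with equal sums of FPKM (H1FOO), 3 with the 8/16-cell libraries alone, 2 with the MIR2887 genes kept (those genes), and 0 to 12 with 1 library left out. Of the interaction, reported as 0, the count was 2 with the MIR2887 genes kept and 0 to 10 with 1 library left out. Genes 2-fold apart on the higher side (38) were 82 with a pseudocount of 0.1 and 65 to 207 with 1 of the 4 libraries left out; on the lower side (14) they were 32 with a pseudocount of 0.1, 8 with a mean of at least 5 FPKM, 25 with quantile normalization and 35 to 105 with 1 library left out. The last ranges follow from comparing fewer libraries; the cause of the other changes was not tested.

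With the replicate block, at the 8/16-cell stage 4 genes passed (H1FOO, LUM, LOC112442848 and LOC112442852) and 51 passed the interaction. In that limma fit the adjusted p was 0.00526 for H1FOO and 0.0348 for LUM. The block pairs the 8/16-cell libraries by number too, although same-numbered libraries there had a correlation of 0.0569. The morula values with the block and without single morula libraries were added after the data had been seen; without 1 morula library, 14 of 14 genes of the higher group were positive there and 9 to 12 of 14 of the lower group negative.

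Over all 166 named genes, 3246 recomputed differences kept their direction and their side of the threshold, 5 passed it, and 26 changed sign. With equal sums these were KLF17 (-0.028), ZP3 (-0.038) and H1FX (-0.053), and with quantile normalization KLF17 (-0.0026). With 1 library left out, NANOG ranged from -0.54 to 0.25, POU5F1 from -0.57 to 0.067, ARGFX from -0.13 to 0.092, GDF9 from -0.68 to 0.12, BMP15 from -0.64 to 0.30, ZP3 from -0.13 to 0.27, HIST1H1C from -0.24 to 0.51, HIST1H1D from -0.71 to 0.30, H2AFJ from -0.047 to 0.44, KRT8 from -0.011 to 0.40, SOHLH1 from -0.12 to 0.86, RPL22 from -0.069 to 1.32, LDHC from -0.044 to 0.26 and HBA from -0.20 to 0.056. Of the list medians, 842 moved by less than the spread between replicates and 55 by more. Equal sums of FPKM moved the median of all genes from 0.02 to -0.08.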
